A study of Canis lupus familiaris with 8 samples.

Results

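The genes described here are urokinase (PLAU), 3 further proteases (KLK1, MME and MMP9) and 3 protease inhibitors (SLPI, TIMP1 and TIMP2). They were found by matching the accession of every gene probe on a canine 1-colour expression array to a gene symbol. The match gave 15 probes for these 7 genes, out of 43603 gene probes and 1458 genes that could be named. The match used no measured value, but the genes themselves were chosen with earlier results of these data known.

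RNA came from CMT-Stylo, a canine mammary carcinoma cell line, and from CMT-Star, a subline grown from it under rising doxorubicin over several months until it resisted 100 nM. Stylo parent is the untreated, unsorted CMT-Stylo line, and Star parent is the unsorted, doxorubicin-treated subline. Stylo CSC and Star CSC are cells of each line sorted as CD44+, CD24-/low and ALDH+, the gate the study uses for cancer stem cells (CSC). All 4 groups were kept in the same serum-containing medium, each rests on 1 line or 1 subline, and each has n = 2 arrays. The labels do not say whether 2 replicates were 2 cultures, so a p-value here weighs array-to-array spread that may be purely technical.

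Urokinase cuts plasminogen into plasmin, a protease that digests fibrin and matrix and activates other proteases. Matrix metalloproteases such as MMP9 (gelatinase B) are held back by the tissue inhibitors of metalloproteases, the TIMPs, while SLPI blocks neutrophil elastase and related serine proteases on mucosal and glandular surfaces. In carcinomas this balance of proteases and inhibitors is studied for its part in invasion.

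The deposited values are a background-corrected signal per spot. A level below is the log2 of that signal minus the array's 75th percentile, so a level of 0 is the 75th percentile of that array, and levels of different probes are not compared. The 75th percentile of signal was 69.2 and 88.3 on the Stylo parent arrays and 296 to 536 on the other 6. Slide 1 held the Stylo arrays and slide 2 the Star arrays, so line and slide cannot be told apart, whereas each sorted group shares its slide with its unsorted line. Of 12 epithelial markers 5 could be named. CDH1, KRT19 and MUC1 were not well above background on either Stylo parent array, while CLDN3 and KRT14 were on both. The summed level of the 5, relative to the 75th percentile on a linear scale, was 3.45 and 4.23 in Stylo parent. It was 2.28 and 2.45 in Stylo CSC, 0.94 and 1.09 in Star parent, and 1.20 and 1.35 in Star CSC. The 5 did not move alike. In Stylo CSC against Stylo parent the log2 difference was 4.49 for CDH1, -2.26 for CLDN3 and -0.98 for KRT14. In Star parent against Stylo parent it was 1.31, -4.27 and -2.00 in the same order. KRT19 and MUC1 were not well above background on any Stylo array. The 7 named of 12 mesenchymal markers were well above background on all 8 arrays. Their summed level, relative to the 75th percentile on a linear scale, was 665 and 740 in Stylo parent, 1291 and 1399 in Stylo CSC, 442 and 376 in Star parent, and 294 and 319 in Star CSC. VIM, at a mean log2 level of 9.27 in Stylo parent, made up most of the sum there. In Stylo CSC against Stylo parent 4 of the 7 were higher by the rule given below. DPT (-1.96) and PDGFRB (-1.09) were lower. In Star CSC against Star parent only DPT passed that rule, and it was higher (2.16) while the sum was lower. The part of these epithelial and mesenchymal markers in the differences below was not tested. In RNA from a population, fewer cells of a type and less RNA per cell cannot be told apart.

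A gene was called changed at a Benjamini-Hochberg adjusted p under 0.05 over all tested probes (limma) and a change of at least 2-fold. MMP9 could not be tested, and the other 6 genes are counted by their brightest tested probe, called probe 1. Against Stylo parent, Star parent had 4 of the 6 genes lower and none higher, among 978 named genes of which 39.2% were lower and 20.6% higher. Against Stylo parent, Stylo CSC also had 4 lower and none higher, beside 37.9% lower and 19.3% higher of all named genes (57.3% in all). With spike-in scaling that second comparison had 1 lower, PLAU, and 2 higher, TIMP1 and TIMP2. Of all tested probes 68.2% were called under that scaling, 98.4% of these higher. Star CSC against Star parent had 2 lower and 1 higher, beside 7.36% and 5.52% (12.9% in all). With spike-in scaling it had none lower and 4 higher, where 82.3% of all tested probes were called, 99.3% of these higher. Star CSC against Stylo CSC had 3 lower and 1 higher, beside 22.3% and 15.7% (38% in all). Over all named genes 59.7% changed in the first comparison, so a share of 4 in 6 there is near the background and is no result about the set. The median log2 difference of the 6 genes was -1.87, -1.61, -0.39 and -0.98 in these 4 comparisons, beside -0.50, -0.59, -0.10 and -0.19 over all named genes. The comparisons share arrays in pairs, and each is therefore given with its own values.

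**Figure D1:**
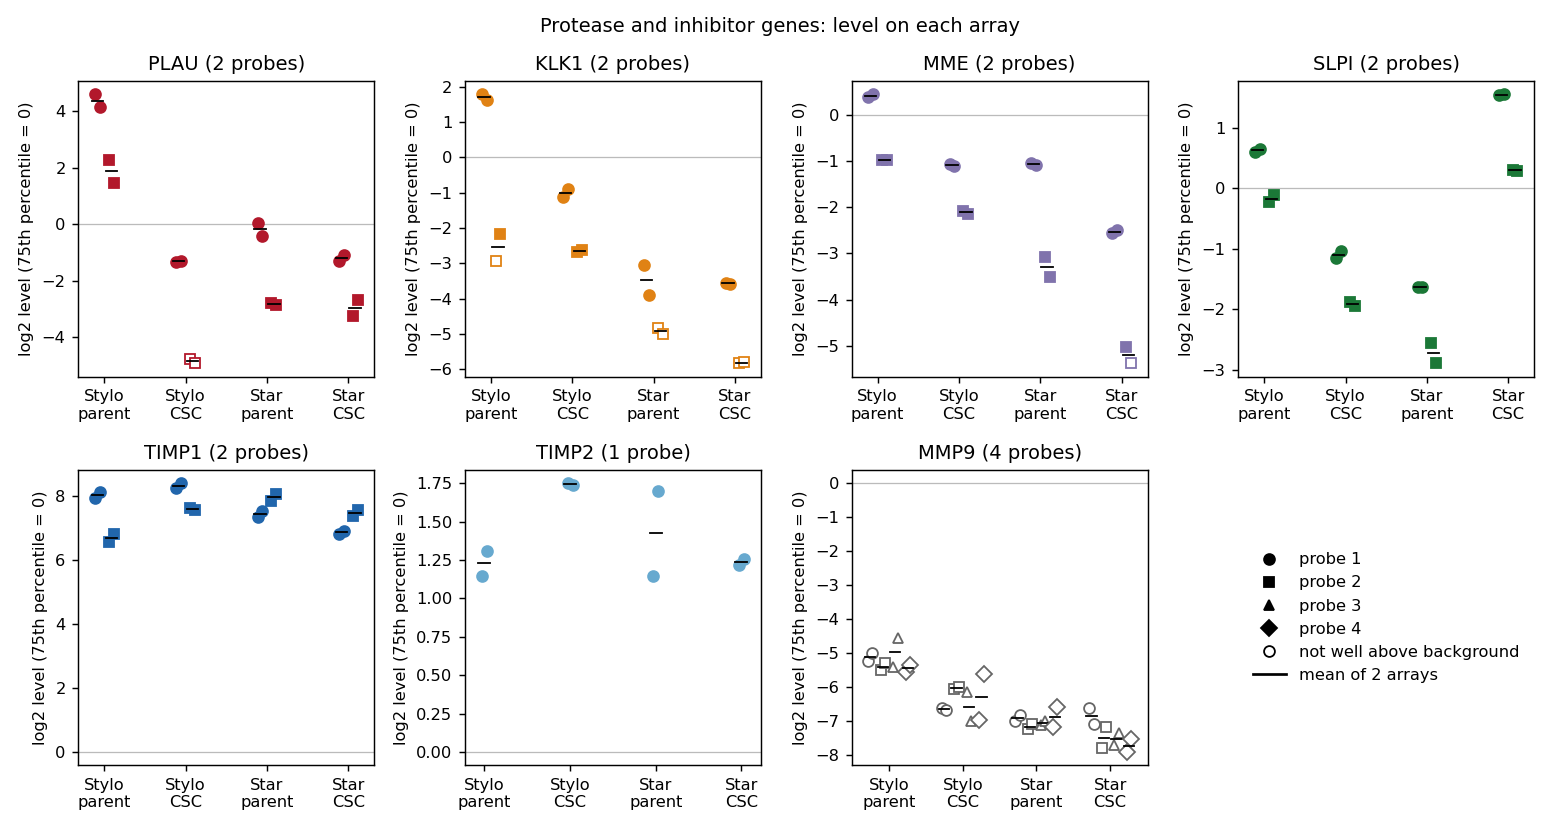
Log2 level on each array for every probe of the 7 genes, with the 75th percentile of the array at 0. Shapes stand for the probes of a gene, open symbols for arrays on which the probe was not well above background, and black lines for the mean of 2 arrays. PLAU stood highest on the Stylo parent arrays, SLPI on the Star CSC arrays, and no MMP9 symbol is filled.

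Urokinase was higher in the unsorted sensitive line than in the other 3 groups. On PLAU probe 1 the signals were 2118 and 1226 on the Stylo parent arrays, 122 and 121 in Stylo CSC, 379 and 248 in Star parent, and 214 and 214 in Star CSC. The Stylo parent arrays, the dimmest of the series, thus gave the brightest urokinase signals before any scaling. The scaled levels were 4.58 and 4.15 in Stylo parent, -1.34 and -1.29 in Stylo CSC, 0.030 and -0.41 in Star parent, and -1.33 and -1.11 in Star CSC. Both Stylo parent levels lay above all others, and the levels of the 2 sorted groups overlapped.

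PLAU probe 1 was 23.5-fold lower in Star parent than in Stylo parent (log2 -4.56 ± 0.21 SE; limma, adjusted p = 9.84e-06). It was 51.3-fold lower in Stylo CSC than in Stylo parent (-5.68 ± 0.21, adjusted p = 1.21e-05). PLAU probe 2 fell by 4.69 ± 0.31 in Star parent on the log2 scale. It was not well above background on either Stylo CSC array, which puts Stylo CSC at least 101-fold below Stylo parent at the reported scaling. A bound of this kind sets the dim group at the lowest signal accepted as well above background, or at the probe's own signal where that is higher. These falls were called on both probes under every scaling tried, but their size moved. In Stylo CSC against Stylo parent probe 1 gave -3.71 with normexp and -3.59 with spike-in scaling, and probe 2 gave -2.98 and -4.63.

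Within the resistant subline the urokinase difference was small. PLAU probe 1 was 2.04-fold lower in Star CSC than in Star parent (-1.03 ± 0.21, limma adjusted p = 0.0173), and probe 2 stood at -0.15 ± 0.31 and was not called. The call on probe 1 was lost with median scaling (-0.79), with another background correction, normexp (-0.79), and without either Star CSC array or without Star parent replicate 1 (-1.13 to -0.80). Scaling on spike-in RNA turned it to 0.66. Between the sorted groups, probe 1 differed by 0.10 ± 0.21 and was not called. Star CSC exceeded Stylo CSC at least 3.53-fold on probe 2 (adjusted p = 0.00329), a difference of 0.054 with normexp and no longer called. The 2 probes therefore give no common order of the sorted groups.

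KLK1, tissue kallikrein, which releases kinins from kininogen, was also highest in the unsorted sensitive line. On KLK1 probe 1 the levels were 1.78 and 1.61 in Stylo parent, -1.14 and -0.89 in Stylo CSC, -3.05 and -3.90 in Star parent, and -3.55 and -3.58 in Star CSC. The Stylo groups stood apart from each other and from both Star groups, whose levels overlapped. In Star parent the gene was 36.0-fold lower than in Stylo parent (-5.17 ± 0.27, limma adjusted p = 1.52e-05). In Stylo CSC it was 6.52-fold lower than in Stylo parent (-2.71 ± 0.27, adjusted p = 0.00023), a call lost with spike-in scaling (-0.61). Star CSC was 5.88-fold below Stylo CSC (-2.56 ± 0.27), and Star CSC and Star parent differed by -0.09 ± 0.27.

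The second KLK1 probe was dim and was well above background on 1 of 2 Stylo parent arrays, on both Stylo CSC arrays and on no Star array. It was tested only through Stylo CSC and was at least 7.04-fold lower in Star CSC than there, a fall that is therefore no support. Before scaling, its signals in Star parent, 12.98 and 10.38, overlapped those of Stylo parent, 11.45 and 15.46. The scaled levels did not overlap, and the difference of -2.36 ± 0.25 was called lower in Star parent under every scaling tried. Only 1 of these arrays was well above background, so no fold is given. Its levels were -2.68 and -2.64 in Stylo CSC and -2.95 and -2.16 in Stylo parent, and the difference was -0.10 ± 0.25, not called. That value was -1.40 with normexp, close to the -1.48 of probe 1 there, and 1.99 with spike-in scaling, both called. Whether the KLK1 probes differ on the sort thus depends on the processing.

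MME, neprilysin, is a membrane metallopeptidase that degrades small peptides and is also the surface antigen CD10. On MME probe 1 the levels were 0.39 and 0.44 in Stylo parent, -1.06 and -1.10 in Stylo CSC, -1.05 and -1.08 in Star parent, and -2.55 and -2.50 in Star CSC. Stylo parent was highest, Star CSC lowest, and Stylo CSC and Star parent overlapped between them. The 4 differences were -1.48 for Star parent against Stylo parent, -1.50 for Stylo CSC against Stylo parent, -1.46 for Star CSC against Star parent and -1.45 for Star CSC against Stylo CSC, each ± 0.09, with limma adjusted p between 2.22e-05 and 0.000603. Probe 2 gave -2.32, -1.13, -1.90 and -3.09 in the same order, each ± 0.18, all called, although 1 of 2 Star CSC arrays was not well above background on it, so the last 2 sizes are uncertain.

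Most MME calls depended on how the arrays were scaled. On probe 2, Star parent against Stylo parent (-2.32 to -1.25) and Star CSC against Stylo CSC (-3.09 to -1.31) stayed called under every scaling tried. Before scaling, MME probe 1 gave 116 and 94.0 on the Stylo parent arrays and 149 and 138 on the Stylo CSC arrays, the reverse of the order of the scaled levels. With spike-in scaling the 4 differences of probe 1 became -0.41, 0.60, 0.22 and -0.79, and none was called. Normexp ended the call of probe 1 in Stylo CSC (-0.98). On probe 2 cyclic loess (-0.87), median scaling (-0.70) and a percentile over the probes detected on all arrays (-0.93) ended that call too, and spike-in scaling turned it to 0.96. In Star CSC against Star parent the call of probe 2 was lost with normexp (-0.92) and spike-in scaling (-0.22).

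MMP9 was not well above background on any array. Its 4 probes gave signals between 1.71 and 6.06 over the 8 arrays, and no fold is given. At this signal a difference in MMP9 between the groups was not detectable.

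SLPI was the member that rose with sorting in the resistant subline. On SLPI probe 1 the signals were 1553 and 1355 on the Star CSC arrays, against 120 and 107 in Star parent, 138 and 145 in Stylo CSC, and 134 and 108 in Stylo parent. Before scaling, the Star CSC arrays thus stood apart from the other 6, which lay close together. The scaled levels were 1.54 and 1.55 in Star CSC, -1.63 and -1.63 in Star parent, -1.16 and -1.03 in Stylo CSC, and 0.60 and 0.65 in Stylo parent. No 2 groups overlapped.

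SLPI probe 1 was 9.01-fold higher in Star CSC than in Star parent (3.17 ± 0.09, limma adjusted p = 0.000115) and 6.23-fold higher than in Stylo CSC (2.64 ± 0.09, adjusted p = 2.27e-05). Probe 2 gave 3.02 ± 0.14 and 2.21 ± 0.14, and both probes kept these calls under every scaling tried. In the sensitive line the scaled levels went the other way: Stylo CSC was lower than Stylo parent by -1.72 ± 0.09 on probe 1 and -1.74 ± 0.14 on probe 2. With spike-in scaling those values were 0.37 and 0.36 and not called. Star parent was lower than Stylo parent by -2.25 ± 0.09 on probe 1 and -2.55 ± 0.14 on probe 2, called under every scaling tried.

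Leukocyte markers were followed in the resistant subline as well. Of 13 such markers 6 could be named and 3 tested. In Star CSC against Star parent CD86 (3.97 ± 0.25) was called higher while CD79A (-0.16 ± 0.34) was not called. Of the 6 named, 2 of them were well above background on each Star parent array and 3 and 4 on the Star CSC arrays. Their summed level was 0.146 and 0.180 in Star parent and 1.05 and 1.11 in Star CSC. TYROBP, an adaptor of myeloid and natural killer cells, was well above background on the Star CSC arrays and on no other. It was therefore tested only through the group where it was high. Neither its call as higher there nor its share in the counts and summed levels above is support. The other marker gained in the counts was CD8A, on 1 Star CSC array. CD4 and MS4A1 cleared background on none of the 8 arrays. The part of these markers in the SLPI difference was not tested.

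TIMP1, a secreted inhibitor of many matrix metalloproteases, was bright in every group, and its 2 probes disagreed. On TIMP1 probe 1 the levels were 7.95 and 8.14 in Stylo parent, 8.24 and 8.40 in Stylo CSC, 7.35 and 7.54 in Star parent, and 6.82 and 6.91 in Star CSC. On probe 2 they were 6.56 and 6.82, 7.63 and 7.58, 7.85 and 8.07, and 7.36 and 7.55 in the same order of groups. Stylo parent was thus above both Star groups on probe 1 and the lowest group on probe 2. The probes correlated at r = -0.26 over the 8 arrays, where the 2 probes of the other 4 genes with a pair correlated at 0.87 to 0.99.

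Star parent against Stylo parent gave -0.60 ± 0.13 on TIMP1 probe 1, not called, and 1.27 ± 0.14 on probe 2 (limma adjusted p = 0.000314), called. With quantile normalization probe 1 became 1.39, with cyclic loess 1.07, with normexp 0.95 and with spike-in scaling 0.47. Star CSC against Stylo CSC gave -1.46 ± 0.13 on probe 1 (adjusted p = 0.000321) and -0.15 ± 0.14 on probe 2. The probe 1 call was lost with cyclic loess (-0.65), spike-in scaling (-0.80) and quantile normalization (0.00055). Sorting gave 0.28 ± 0.13 and 0.91 ± 0.14 in Stylo and -0.58 ± 0.13 and -0.50 ± 0.14 in Star, none of them called at the reported scaling. In Stylo CSC against Stylo parent probe 2 was called higher under each of the 6 other scalings and background corrections (1.12 to 3.01), and probe 1 with quantile normalization (1.26), cyclic loess (1.36), normexp (1.81) and spike-in scaling (2.37). In Star CSC against Star parent both were called higher with spike-in scaling (1.1 and 1.18). Before scaling, the 2 probes were 19473 to 21849 and 7826 to 8349 in Stylo parent, the lowest of the 4 groups for both.

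TIMP2, which inhibits metalloproteases and also takes part in activating the MMP2 precursor, has 1 probe here. Its levels were 1.14 and 1.31 in Stylo parent, 1.75 and 1.74 in Stylo CSC, 1.15 and 1.70 in Star parent, and 1.22 and 1.26 in Star CSC. The 2 Star parent arrays differed by more than the means of any 2 groups. The differences were 0.20, 0.52, -0.19 and -0.51, each ± 0.19, and none was called, Stylo CSC against Stylo parent (limma adjusted p = 0.0463) being under the fold limit.

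**Figure D2:**
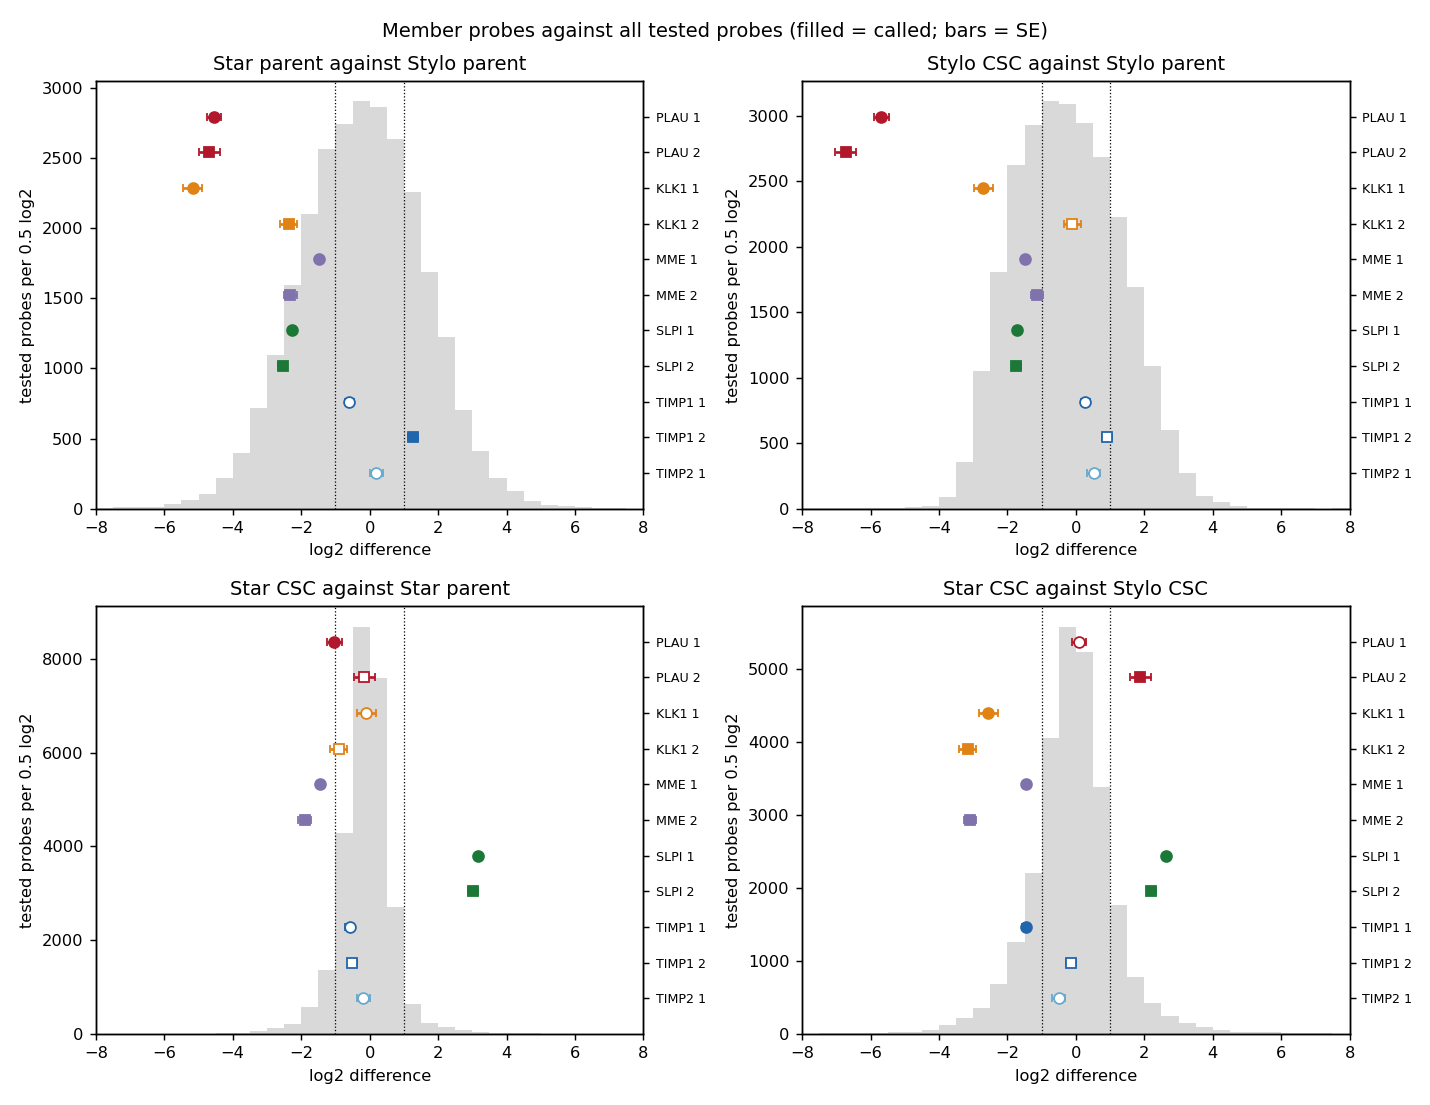
Log2 difference of each tested probe of the 6 genes (points, with SE, right axis, numbered by probe) over the distribution of all tested probes (grey bars, left axis, per 0.5 log2), for the 4 comparisons. Filled points were called and dotted lines mark 2-fold. PLAU and KLK1 probe 1 lay far to the left among all probes in Star parent against Stylo parent, and SLPI far to the right in Star CSC against Star parent.

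Whether sorting had a different effect in the 2 lines was tested as an interaction, the sorting difference in Star minus that in Stylo. Of the 6 genes 3 were called and all 3 were higher, beside 33.2% higher and 20.9% lower of all named genes (54.1% in all). SLPI differed by 4.89 ± 0.13 on probe 1 and 4.76 ± 0.19 on probe 2 (limma adjusted p = 4.92e-05 for each). PLAU differed by 4.65 ± 0.30 on probe 1 (adjusted p = 8.03e-05). On probe 2 the fit gave 6.57, which is no measured size because Stylo CSC was below background there, and 2.62 with normexp. The PLAU value comes from a fall in Stylo CSC with little change in Star CSC, and the SLPI value from opposite signs in the 2 lines at the reported scaling, while with spike-in scaling probe 1 gave 0.37 in Stylo, not called, and 4.86 in Star. KLK1 probe 1 differed by 2.61 ± 0.39 (adjusted p = 0.00169), and probe 2 gave -0.80 ± 0.35 and was not called. With median scaling and with cyclic loess (-1.17) probe 2 was called lower, the opposite direction to probe 1. Under the other scalings probe 2 was not called, and normexp turned it to 0.82.

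For MME the interaction was 0.03 ± 0.12 on probe 1 and -0.77 ± 0.26 on probe 2, neither called. A p above the threshold does not show that the sorting differences were equal. TIMP1 gave -0.86 ± 0.18 on probe 1, under the fold limit, but called with the detected-probe percentile (-1.04), median scaling (-1.06), quantile normalization (-1.39), cyclic loess (-1.72) and normexp (-2.27). It gave -1.42 ± 0.20 on probe 2 (limma adjusted p = 0.0014), which was called. TIMP2 gave -0.70 ± 0.27 and was called with normexp alone (-1.30). The called interactions kept their call and sign under every scaling tried, at 2.91 to 4.71 for PLAU probe 1, 3.71 to 4.98 for SLPI probe 1 and 1.01 to 2.73 for KLK1 probe 1.

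**Figure D3:**
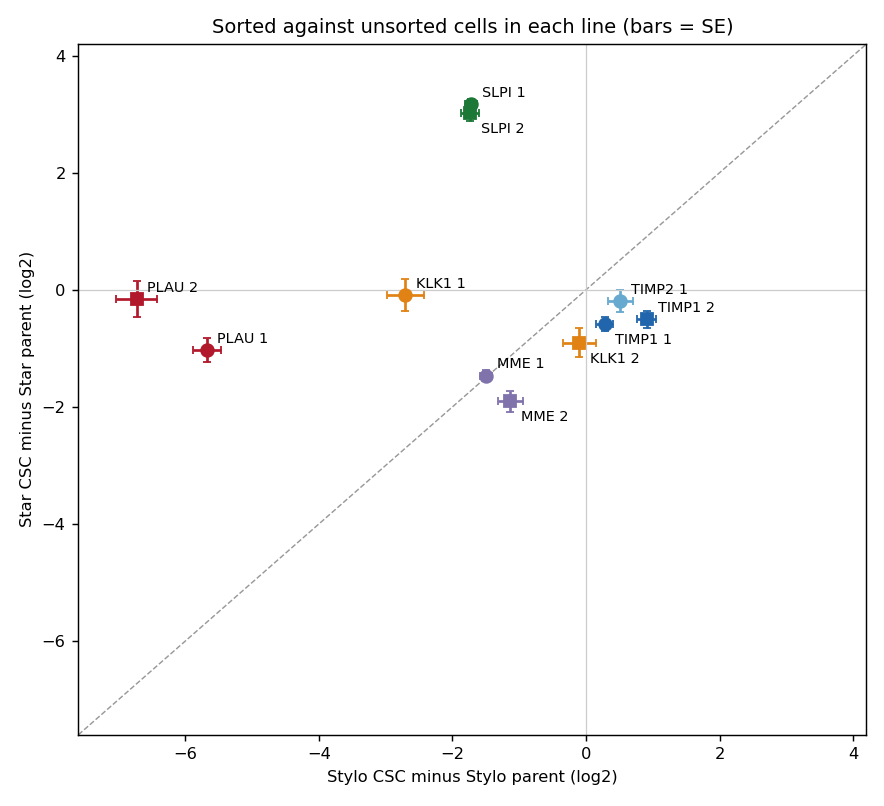
Sorting difference in Stylo (horizontal axis, log2) against that in Star (vertical axis, log2) for each tested probe, with SE bars. On the dashed line both lines change alike. MME probe 1 lies on it, PLAU far above it through its fall in Stylo, and SLPI, at this scaling, in the quadrant of a fall in Stylo and a rise in Star.

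The plasminogen and coagulation genes around urokinase were followed in a list of 29 genes, of which 13 could be named and 9 were tested. In Star parent against Stylo parent 4 were lower and none higher, in Stylo CSC against Stylo parent 8 were lower and 1 higher, and in both comparisons with Star CSC 3 were lower and none higher. Of all named genes 39.2%, 37.9%, 7.36% and 22.3% were lower in these comparisons, and the first count lies near its share. The list median in Stylo CSC against Stylo parent was -1.80, beside -0.59 over all named genes. Plasminogen itself (PLG), the substrate of urokinase, did not clear background in Star parent or in Stylo CSC, at least 34.2-fold and at least 28.7-fold below Stylo parent at the reported scaling. With normexp the PLG differences were -2.34 and -2.54. PLG passed the filter through Stylo parent, the group where it was high. Its falls, counted among the 4 and the 8 lower genes, are therefore no support.

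The protease-activated receptor gene F2RL1 was 1.03 ± 0.17 higher in Stylo CSC than in Stylo parent, a sign that normexp turned (-0.89). F2RL1 was lower in Star CSC than in Stylo CSC (-2.04 ± 0.17). A list of membrane and peptide-clearing peptidases, the class of MME, with kinin receptors added, had 5 of 26 listed genes tested. In Star parent against Stylo parent 1 was higher, a peptidase, and 1 lower, the receptor gene BDKRB2. Of all named genes 20.6% were higher and 39.2% lower there. ANPEP, aminopeptidase N, was the riser in Star parent (4.53 ± 0.19, well above background on 1 of 2 Stylo parent arrays). It was also 2.49 ± 0.19 higher in Star CSC than in Stylo CSC. In Stylo CSC against Stylo parent this list had 2 higher, ANPEP and BDKRB1, and 1 lower, BDKRB2. Of all named genes 19.3% were higher and 37.9% lower. ANPEP stood at 1.81 ± 0.19, which normexp turned to -0.45. The kinin receptors BDKRB1 and BDKRB2, which respond to the peptides that KLK1 releases, are in the same list. BDKRB2 was lower in Star parent than in Stylo parent (-1.50 ± 0.14), a call lost with spike-in scaling (-0.43), and in Stylo CSC (-1.33 ± 0.14), lost with median scaling and turned by spike-in scaling (0.77). BDKRB1 differed from Stylo parent by 0.10 ± 0.39 in Star parent, not called, and was higher in Stylo CSC (1.46 ± 0.39, limma adjusted p = 0.0144). BDKRB1 was lower in Star CSC than in Stylo CSC (-3.26 ± 0.39) and than in Star parent (-1.90 ± 0.39), the second lost with spike-in scaling (-0.21).

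Among metalloproteases of the matrix, the class of MMP9, 4 of 29 listed genes were tested. Star parent had 1 higher and none lower than Stylo parent, Stylo CSC had none higher and 1 lower than its line, Star CSC had 1 higher and none lower than its line, and Star CSC had 2 higher and 1 lower than Stylo CSC. Of all named genes 20.6%, 19.3%, 5.52% and 15.7% were higher in the same comparisons, and 39.2%, 37.9%, 7.36% and 22.3% lower. The 1 lower in Stylo CSC against Stylo parent was MMP3, below background in both groups and so no measured fall. MMP11, stromelysin-3, was 1.05 ± 0.19 higher in Star CSC than in Star parent, a call lost with normexp (-0.020). MMP11 was also the 1 higher in Star parent, but it was not well above background in Stylo parent. Normexp turned that difference to -1.66. MMP3 did not clear background in Stylo CSC and stood at least 1.48-fold higher in Star CSC, a difference that normexp turned to -0.012. ADAM17, which sheds membrane proteins, was lower in Star CSC than in Stylo CSC (-1.37 ± 0.13), a call lost with spike-in scaling (-0.70).

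Other protease inhibitors, beside SLPI and the TIMPs, numbered 9 tested of 24 listed. They had 2 higher and none lower in Star parent against Stylo parent, 2 higher and 3 lower in Stylo CSC against Stylo parent, none higher and 1 lower in Star CSC against Star parent, and 4 higher and 2 lower in Star CSC against Stylo CSC. The shares of all named genes that were higher or lower are those given for the metalloproteases. Of the 3 lower in Stylo CSC, WFDC2 was below background in both groups and is no measured fall. RECK, a membrane-bound inhibitor of metalloproteases, did not clear background in Stylo parent and was at least 3.0-fold higher in Star parent, and normexp turned the difference to -1.05. RECK was also 2.17 ± 0.20 higher in Star CSC than in Stylo CSC, where 1 of 2 arrays was well above background, lost with normexp (0.40). PI3, elafin, an elastase inhibitor related to SLPI, did not follow it: PI3 was 1.64 ± 0.14 higher in Stylo CSC than in Stylo parent, lost with normexp (0.41), and lower in Star CSC than in Stylo CSC (-1.39 ± 0.14), lost with spike-in scaling (-0.73). SPINK5, a kallikrein inhibitor of skin, was lower in Star CSC than in Star parent (-1.85 ± 0.54, limma adjusted p = 0.0482), a call kept with the detected-probe percentile and lost under the other 5 scalings and background corrections tried.

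Cathepsins and serine proteases had 5 of 41 listed genes tested, with 4 higher and none lower in Star parent against Stylo parent and 3 higher and none lower in Star CSC against Stylo CSC, where 20.6% and 15.7% of all named genes were higher. In the same comparisons 39.2% and 22.3% of all named genes were lower. In Stylo CSC against Stylo parent 1 cathepsin was higher and 1 lower, beside 19.3% and 37.9% of all named genes. In Star CSC against Star parent 1 was lower, beside 7.36%. CTSA, lysosomal protective protein, rose by 2.14 ± 0.09 in Stylo CSC. CTSK, a collagen-degrading cathepsin, was lower there (-1.81 ± 0.11), a sign that spike-in scaling turned (0.29). CTSS was 2.54 ± 0.19 higher in Star CSC than in Stylo CSC, with 1 of 2 Stylo CSC arrays well above background, lost with normexp (0.74). It did not clear background in Stylo parent, and Star parent exceeded that group at least 1.49-fold, a difference that normexp turned to -1.07. CTSD was lower in Star CSC than in Star parent (-1.16 ± 0.24), lost with median scaling and turned by spike-in scaling (0.53).

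The genes whose levels ran most like each member over the 8 arrays were found among 725 named genes, as a description. For PLAU they were ADH5 (Pearson r = 0.996), TIMM8A (0.993) and NME1 (0.991). For KLK1 they were HMGB1, RPL10A and NKX2-1 (0.997 to 0.995). For MME they were F3, the coagulation initiator tissue factor (0.996), CCL17 (0.987) and INSL3 (0.982). For SLPI they were ZBTB1 (0.983), the matrix protein gene DPT (0.963) and LOC477518 (0.961). TIMP1 probe 1 ran most like ACTB, MT2A and VIM (0.976 to 0.972), and TIMP2 like EWSR1 (0.950), SLC39A7 and SLC9A3R1. The 8 arrays share 4 groups, so these coefficients mostly describe the pattern of 4 group means.

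**Figure D4:**
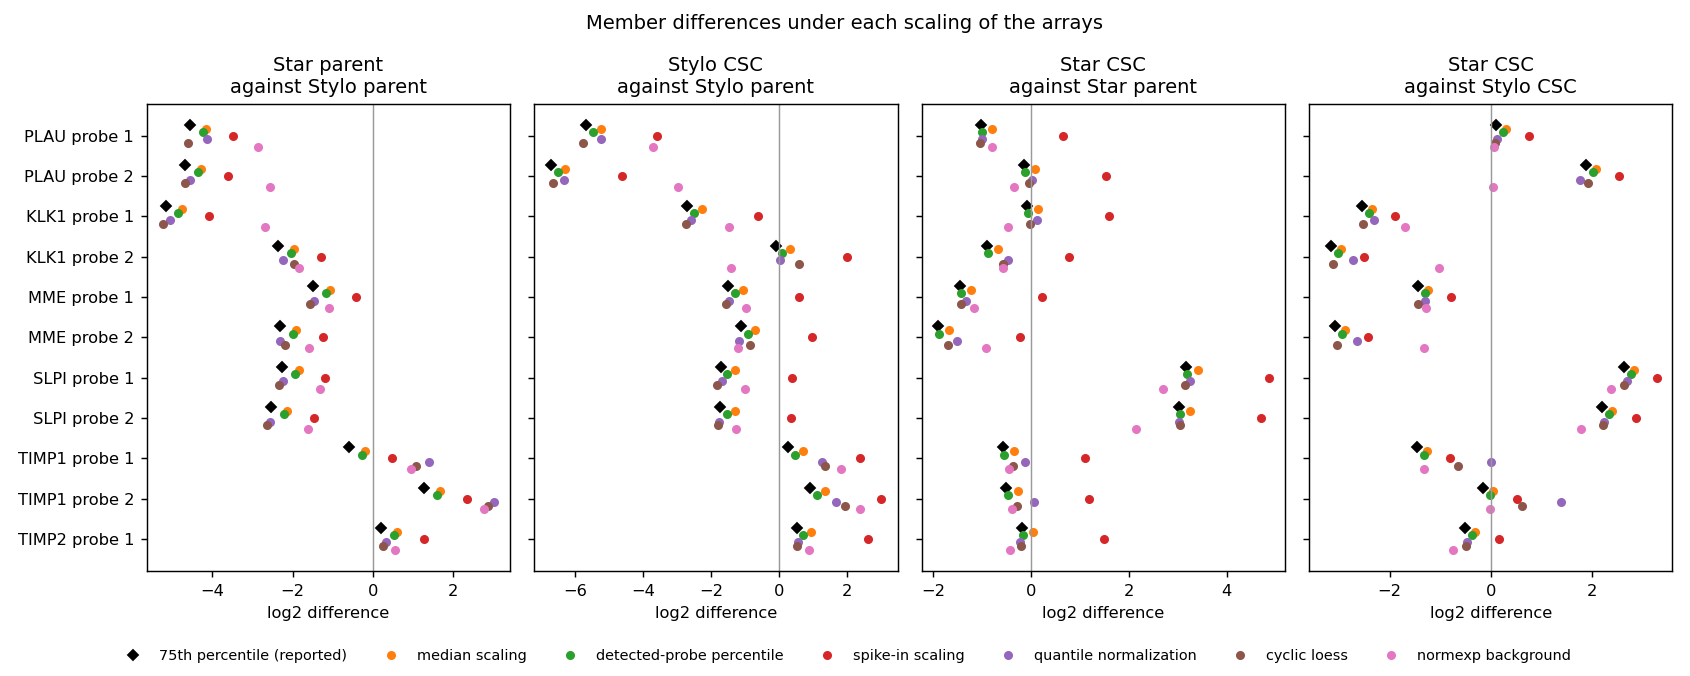
Log2 difference of each tested probe in the 4 comparisons under 7 ways of scaling or background correction, with the reported one as black diamonds. The PLAU falls against Stylo parent stay left of 0 under all 7 and the SLPI rise in Star CSC stays right of 0 under all 7. The MME and SLPI differences in Stylo CSC against Stylo parent cross 0 with spike-in scaling.

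The scalings shift whole comparisons. The median difference of all tested probes was -0.20, -0.28, -0.10 and -0.10 in the 4 comparisons as reported, and 0.87, 1.82, 1.58 and 0.56 with spike-in scaling. The share of calls that were higher was 43.5%, 40.6%, 33.1% and 42.8% as reported. It was 56.9%, 57.2%, 58.7% and 56.2% with median scaling and 77.0%, 98.4%, 99.3% and 78.6% with spike-in scaling. Quantile normalization gave 55.3%, 53.9%, 46.6% and 52.4%, and normexp 25.0%, 25.5%, 32.8% and 35.1%. For the interaction the share was 54.0% as reported, 70.0% with normexp and 34.4% with spike-in scaling. Relative to the median of all tested probes, PLAU probe 1 stood at -4.36 in Star parent and -5.40 in Stylo CSC against Stylo parent, and SLPI probe 1 at 3.27 in Star CSC against Star parent.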

How the data were processed

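The deposited scanner files come from Feature Extraction 11.5.1.1 (Agilent), per their headers. They hold each spot's processed signal as an intensity, with background flags, per the file headers. Values in the authors' series matrix are log2, as deposited. Set against the scanner files over 18346 probes, these equal processed signals on the log2 scale, scaled to each 75th percentile and centred per probe. Column medians ran from -0.27 to 1.01.

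Sample titles gave the groups and replicate numbers. Spots of controls and outlier-flagged spots were left out, repeat spots of a probe were averaged as log2 values, and each array was scaled to its 75th percentile. No spot was saturated. A probe was tested if both arrays of 1 or more groups had it well above background, 26821 or 26823 per comparison. limma 3.58.1 in R 4.3.3 fitted the 4 group means on 8 arrays (lmFit and eBayes, two-sided), and the fit was tested on simulated data. Same-numbered replicates had deviations correlated at -0.07 to 0.07, so no block was used. The number of arrays limits the precision.

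RefSeq's gene table of UU_Cfam_GSD_1.0, used for names alone and matched on accession, named 2353 of 43603 probes (5.40%). Every probe of the 7 genes is reported. From each pathway list the called genes with the largest rise and fall per comparison are named, and for each member the 3 most alike genes. Of those, MMP3 and WFDC2 in Stylo CSC against Stylo parent were below background in both groups. Another gene picked by this rule is not reported here. The members and lists were chosen with earlier results of these data known. Alternatives were scaling to the median, to 7 spike-in probes or to the percentile of detected probes, quantile normalization, cyclic loess, normexp with an offset of 50 on the median signal (the files hold no mean signal), filters, thresholds, variance models, blocks, leaving out each array, and the deposited matrix.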

Additional observations from a re-analysis of the deposited data

Results flagged for a closer look

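The sorting difference in Star minus that in Stylo passed its test on 6 probes of 4 genes (limma, Benjamini-Hochberg adjusted p over all tested probes, n = 2 arrays per group), which is why they are listed here. It was 4.65 for PLAU probe 1, where the fall in Stylo CSC outweighs a small difference in Star CSC. The fitted 6.57 for PLAU probe 2 is no measured size, since Stylo CSC was below background on both arrays, and was 2.62 with normexp. It was 2.61 for KLK1 probe 1, while probe 2 gave -0.80, not called, but called lower with median scaling and cyclic loess (-1.17). It was 4.89 for SLPI probe 1 and 4.76 for SLPI probe 2, the gene whose scaled level fell with sorting in Stylo and rose in Star, the fall turning to 0.37 and 0.36 with spike-in scaling. It was -1.42 for TIMP1 probe 2, with -0.86 on probe 1. Over all tested probes 52.1% passed the same test.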

How the results depend on the processing

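Leaving out each array in turn gave 14738 to 15234 called probes in Star parent against Stylo parent, 13834 to 14573 in Stylo CSC against Stylo parent, 2179 to 2992 in Star CSC against Star parent, 7078 to 8046 in Star CSC against Stylo CSC and 13085 to 13845 for the interaction. The genes called numbered 4, 4, 2 to 3, 4 and 3. With the replicate number as a block, the counts of called probes were 15147, 14458, 2525, 7867 and 13941, and the block changed no call of these genes. No filter on dim probes gave 26734, 28650 and, for the interaction, 21988 called probes. With no fold limit Star CSC against Star parent had 7922 and against Stylo CSC 15288. Normexp gave 1045 and 3977 there. Spike-in scaling gave 22062 in Star CSC against Star parent and 8241 for the interaction. The genes called fell to 2 in Star CSC against Stylo CSC with spike-in scaling and numbered 5 for the interaction with normexp. Of all tested probes 29.6% and 49.4% were called there.

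Signs turned as follows, and the cause was not tested. Spike-in scaling turned, in Stylo CSC against Stylo parent, KLK1 probe 2 (1.99), MME (0.60 and 0.96) and SLPI (0.37 and 0.36). In Star CSC against Star parent it turned PLAU (0.66 and 1.53), KLK1 (1.59 and 0.78), MME probe 1 (0.22), TIMP1 (1.1 and 1.18) and TIMP2 (1.5). In Star CSC against Stylo CSC it turned TIMP1 probe 2 (0.52) and TIMP2 (0.16). In the interaction it turned MME probe 1 (-0.38), as did median scaling (-0.17), the detected-probe percentile (-0.15) and normexp (-0.19), which also turned KLK1 probe 2 (0.82) and MME probe 2 (0.29). TIMP1 probe 1 in Star parent against Stylo parent turned with cyclic loess (1.07), normexp (0.95), quantile normalization (1.39) and spike-in scaling (0.47), and in Star CSC against Stylo CSC with quantile normalization (0.00055). TIMP1 probe 2 turned in Star CSC against Stylo CSC with cyclic loess (0.63), median scaling (0.055) and quantile normalization (1.40), and in Star CSC against Star parent with quantile normalization (0.052). KLK1 probe 2 in Stylo CSC against Stylo parent turned with cyclic loess (0.60), the detected-probe percentile (0.10), median scaling (0.33) and quantile normalization (0.030). Small differences in Star CSC against Star parent turned with median scaling for PLAU probe 2 (0.079), KLK1 probe 1 (0.14) and TIMP2 (0.046), and with quantile normalization for PLAU probe 2 (0.017) and KLK1 probe 1 (0.12).

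Leaving out 1 array turned 6 values near 0. Their ranges were -0.081 to 0.47 for TIMP2 in Star parent, -0.49 to 0.29 for KLK1 probe 2 in Stylo CSC, -0.45 to 0.14 for PLAU probe 2, -0.52 to 0.33 for KLK1 probe 1 and -0.46 to 0.091 for TIMP2 in Star CSC against Star parent, and -0.0093 to 0.20 for PLAU probe 1 in Star CSC against Stylo CSC. Signal over background limits MMP9, KLK1 probe 2, PLAU probe 2 and MME probe 2.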
